A study of Mus musculus with 16 samples.

Results

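The genes described here build cholesterol and fatty acids, control that synthesis, or carry cholesterol out of the cell. The 33 members, of 32285 genes in the count matrices, were chosen by name as a functional module, and each was followed in the 9 matrices of CD8+ T cells from kidney grafts and spleens. They comprise 8 genes from acetyl-CoA to squalene (the mevalonate arm: Acat2, Hmgcs1, Mvk, Pmvk, Mvd, Idi1, Fdps and Fdft1), 9 genes from squalene to cholesterol (the sterol arm: Sqle, Lss, Cyp51, Msmo1, Nsdhl, Hsd17b7, Ebp, Sc5d and Dhcr7), 6 genes of control and transport (Insig1, Insig2, Srebf1, Srebf2, Stard4 and Nr1h2), 8 genes of fatty acid synthesis (Acly, Acaca, Fasn, Scd1, Scd2, Elovl6, Fads1 and Fads2) and the 2 efflux genes Abca1 and Abcg1. Every member had at least 1 UMI (unique molecular identifier, a count of 1 captured transcript) in CD8+ cells of accepted kidneys at 1 and 3 weeks, and Fads2 stayed under the count filter in all comparisons.

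Accepted grafts were DBA/2J kidneys in C57BL/6 (B6) recipients that keep them without immunosuppression, sampled with the recipient spleens at 1, 3 and 24 weeks after transplantation. Rejecting grafts were B6 kidneys in DBA/2J recipients, sampled at 1 week, so that rejection, recipient strain and donor strain cannot be told apart, and the sample labels give strain C57BL/6J and genotype WT for every sample, rejecting ones included. Mice were male per the study's methods, naive spleens came from mice without a graft, and the age of the animals was not given in the sources used here. Viable CD45+ cells were sorted, run on the 10x Genomics Chromium 3′ assay, and the CD8+ T cells were set apart by the study from its own clusters. Library tags in the cell barcodes gave 3, 5 and 3 libraries for accepted kidneys at 1, 3 and 24 weeks, the same numbers for their spleens, 2 for rejecting kidneys, 3 for rejecting recipient spleens and 5 for naive spleens.

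A T cell that divides has to make new membrane, and cholesterol and fatty acids are its main building blocks. When sterols in the endoplasmic reticulum run low, the factor SREBP-2 (Srebf2) is released and raises the genes of the mevalonate and sterol arms together, whereas Insig1 and Insig2 hold it back. When oxysterols accumulate, the liver X receptors (LXRβ is Nr1h2) raise the efflux pumps Abca1 and Abcg1, so synthesis and efflux are known to move in opposite directions.

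Promoter windows from 250 bases before to 50 bases after the start of a transcript were found in the RefSeq table (GRCm38.p6) for 25 of the 33 members, without Abcg1, Fads1, Fdft1, Fdps, Scd1, Scd2, Sqle and Stard4. On either strand, CCAAT, the box bound by NF-Y, lay in 13 of the 14 mevalonate and sterol windows (92.9%), against 41.1% of the windows of all 27025 genes in the table. GGGCGG, the box bound by Sp1, also lay in 13 of these 14 windows, against 38.2% of all genes. The letters TCACNCCAC of a sterol regulatory element were found in Hmgcs1 alone (1.44% of all genes), and the LXR repeat in no member (0.0148% of all genes), which says only that these letters are not in these windows. A match is a description of sequence and was not tested as a binding site. The windows of 3 members are shown because they carry the contrast followed below, with the element match in Hmgcs1, the sterol gene Cyp51 that differed most between kidney and spleen at 3 weeks, and the efflux gene Abca1 that lay on the other side. They run 5′ to 3′ along the gene at chr13:119690101-119690400 (plus strand), chr5:4104648-4104947 (minus strand) and chr4:53159846-53160145 (minus strand), with the matches to these 3 motifs in capitals, also where the motif lies on the opposite strand and reads as its reverse complement.
Hmgcs1: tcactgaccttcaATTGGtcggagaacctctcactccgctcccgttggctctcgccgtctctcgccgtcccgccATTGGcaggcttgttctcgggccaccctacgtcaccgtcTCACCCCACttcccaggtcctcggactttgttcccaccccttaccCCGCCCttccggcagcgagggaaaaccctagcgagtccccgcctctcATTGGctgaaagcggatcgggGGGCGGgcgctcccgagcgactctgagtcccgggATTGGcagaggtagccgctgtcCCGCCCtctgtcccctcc
Cyp51: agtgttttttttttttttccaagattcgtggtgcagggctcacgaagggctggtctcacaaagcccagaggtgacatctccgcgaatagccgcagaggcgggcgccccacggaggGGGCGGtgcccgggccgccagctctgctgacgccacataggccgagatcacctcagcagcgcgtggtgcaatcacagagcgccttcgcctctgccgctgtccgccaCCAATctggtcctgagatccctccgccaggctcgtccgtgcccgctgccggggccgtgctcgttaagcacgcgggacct
Abca1: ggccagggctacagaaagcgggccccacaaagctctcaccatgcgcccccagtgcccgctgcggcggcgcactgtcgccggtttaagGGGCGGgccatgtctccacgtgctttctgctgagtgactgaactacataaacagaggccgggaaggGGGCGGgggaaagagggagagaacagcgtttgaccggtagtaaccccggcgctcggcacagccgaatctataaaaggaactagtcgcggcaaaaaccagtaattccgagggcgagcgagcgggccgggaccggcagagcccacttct
The Hmgcs1 window holds 1 match to TCACNCCAC, 4 to CCAAT and 3 to GGGCGG. The Cyp51 window holds 1 CCAAT and 1 GGGCGG, and the Abca1 window 2 GGGCGG and no CCAAT.

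Of 72639 cells in the 9 matrices, 56585 had a UMI of Cd8a or Cd8b1 and only these were used. Cells with at least 2 of the cell cycle transcripts Mki67, Top2a, Pclaf, Stmn1 and Birc5 after thinning to 1000 UMIs were called dividing (4244 cells) and those with fewer other (52238 cells), and cells under 1000 UMIs were left out. UMIs were summed per library, giving 143017 to 11896662 UMIs for other cells and 187694 to 10885418 UMIs for dividing cells, and are given as CPM, the UMIs of a gene scaled to the same total in every library. No more than 1.79% of the barcodes of a library were shared with another library. All 6 CD8+ T cell markers were detected in every group. The tissue labels at 24 weeks need care, because the share of cells with a CD8 UMI was 46.2% to 49.2% in the kidney-labelled libraries and 93.4% to 95.3% in the spleen-labelled ones, against 83.5% to 97.0% in accepted kidneys and 41.9% to 51.8% in recipient spleens at 1 and 3 weeks. A high share is not particular to kidney, since it was 95.0% to 97.6% in naive spleens and 100% in rejecting recipient spleens. Of 10 genes of kidney parenchyma, 1 was detected at 24 weeks under the kidney label and 6 under the spleen label. The 24-week values are therefore given by label only and no statement below leans on them.

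At 1 and 3 weeks CD8+ T cells of accepted kidneys held a larger sum of mevalonate and sterol transcripts and a smaller sum of efflux transcripts than those of the recipients' spleens. Summed over the 17 mevalonate and sterol genes, other CD8+ cells held 418, 432 and 516 CPM in the 3 accepted kidneys at 1 week and 322 to 483 CPM (median 449) in the 5 at 3 weeks. In the spleens of these recipients the same sum was 268 to 308 CPM at 1 week and 186 to 202 CPM at 3 weeks. It was 225 to 238 CPM in naive spleens. At 1 and 3 weeks no accepted kidney library overlapped with an accepted recipient spleen library of the same time. Abca1 and Abcg1 together ran the other way, with 16.7 to 21.3 CPM in kidneys at 1 week and 21.8 to 31.5 CPM at 3 weeks, against 37.5 to 42.4, 48.8 to 59.1 and 52.2 to 59.3 CPM in spleens at 1 week, at 3 weeks and in naive mice. The sum of the 17 genes was 24.2 to 25.1 times the efflux sum in kidneys at 1 week, 10.4 to 22.1 times at 3 weeks, and 3.31 to 8.22 times in these spleens. In the rejecting model kidneys and spleens overlapped in both sums. The 17 genes summed to 281.8 and 397.4 CPM in rejecting kidneys and 237 to 349.6 CPM in rejecting recipient spleens. Efflux summed to 39.65 and 57.79 CPM against 27.97 to 86.98 CPM. Library 2 of these spleens had 55 other CD8+ cells and 143017 UMIs, so its values rest on few UMIs. Libraries 1 and 3 had 339 and 305 such cells. The medians of the 3 spleens, 339.7 CPM for the 17 genes and 50.99 CPM for efflux, also lay between the 2 kidney values. These sums weigh abundant genes most, describe the libraries and have no test. Gene by gene, 4 of 8 mevalonate and 3 of 9 sterol genes were higher in accepted kidney than spleen at 1 week, beside 29.6% of all genes. At 3 weeks 7 of 8 and 9 of 9 were higher, beside 48.6%.

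**Figure D1:**
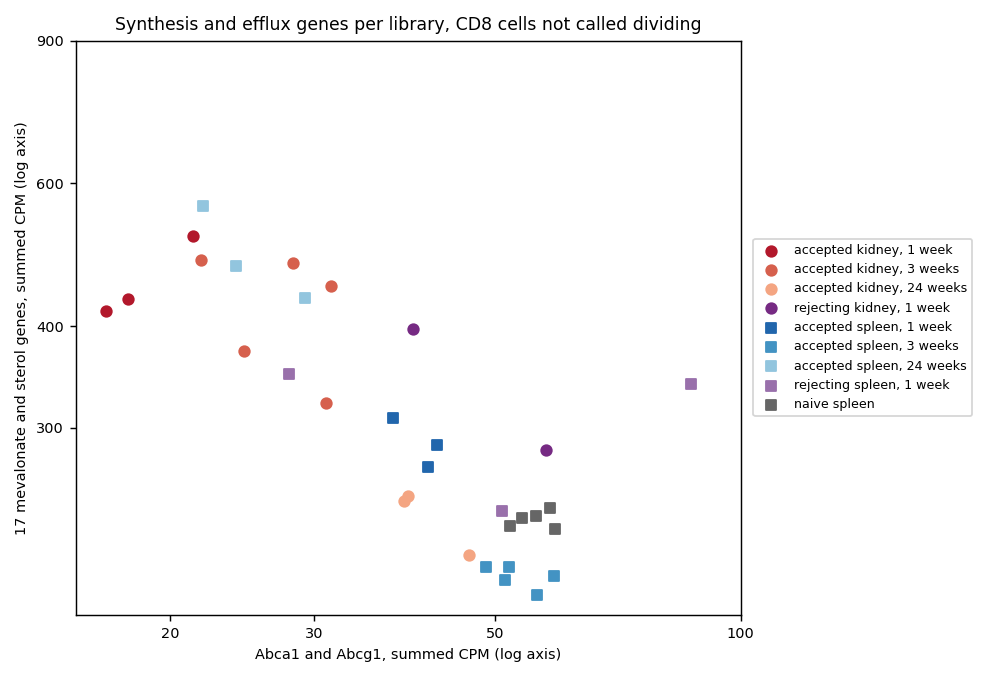
Summed CPM of the 17 mevalonate and sterol genes (vertical log axis) against summed CPM of Abca1 and Abcg1 (horizontal log axis), 1 point per library, other CD8+ cells. Accepted kidneys at 1 and 3 weeks lie at the upper left, and recipient spleens at 3 weeks and naive spleens at the lower right, with efflux sums of 48.8 to 59.3 CPM.

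At 3 weeks, 24 of 32 members tested were higher and 3 lower in kidney than in spleen CD8+ cells, beside 48.6% of all genes tested higher and 16.8% lower. The sterol arm was complete, with 9 of 9 genes higher and a median log2 difference of 1.31 where the median of all genes was 0.28. The mevalonate arm had 7 of 8 higher, without Mvd. Since the median of all genes was itself shifted, changes relative to it are smaller. With TMM factors (a scaling that centres most genes on no change) 19 members were higher and 4 lower, beside 30.4% and 28.2% of all genes. Cyp51, the lanosterol demethylase, was at 28.1, 52.5, 61, 73.6 and 79.5 CPM in the 5 kidneys and at 8.49, 12.3, 11.2, 19.3 and 13.2 CPM in the 5 spleens. Every kidney library was above every spleen library, with a log2 difference of 2.23 ± 0.27 (SE, n = 5 and 5, edgeR adjusted p = 5.95e-07). Sqle, the squalene epoxidase, was at 17.6, 18.5, 25.8, 26.3 and 26.4 CPM against 3.73, 6.89, 6.83, 8.14 and 7.57 CPM. Its 2 groups did not overlap either, and the log2 difference was 1.82 ± 0.20 (edgeR adjusted p = 1.15e-07). Idi1, the isomerase of the 5-carbon isoprenoid units, was higher by 1.61 ± 0.23, Msmo1, a sterol methyl oxidase, by 1.31 ± 0.16, and Sc5d, a sterol desaturase, by 1.07 ± 0.15 on the log2 scale (edgeR adjusted p = 4.68e-06, 5.14e-07 and 3.13e-06). Relative to the median of all genes these 5 differences were 1.95, 1.54, 1.32, 1.03 and 0.79.

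Of the 6 genes of control and transport 5 were higher at 3 weeks and Srebf1 did not pass. Insig1, itself a target of SREBP-2, was at 18.1 to 32.9 CPM in kidneys and 9.24 to 13.7 CPM in spleens, a log2 difference of 1.22 ± 0.19 (edgeR adjusted p = 1.15e-05). Srebf2 was at 64.7 to 81.0 CPM against 39.4 to 54.9 CPM, 0.59 ± 0.09 higher (edgeR adjusted p = 1.17e-05). Stard4, a carrier of cholesterol between membranes that falls outside the rule for named genes and was chosen after its values were seen, was at 42.9 to 53.9 CPM against 12.2 to 19.9 CPM, 1.70 ± 0.12 higher (edgeR adjusted p = 3.32e-10). Nr1h2 was 0.24 higher (edgeR adjusted p = 0.0365), a call that turned to -0.023 with TMM factors and was lost without any of 4 single libraries. Of the fatty acid synthesis genes 3 of 7 tested were higher and 1 lower, with a median of 0.28, the same as all genes.

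At 1 week, with 3 kidney and 3 spleen libraries, 11 of 32 members were higher and 3 lower in kidney cells beside 29.6% of all genes higher and 18.3% lower. Cyp51 was at 83.9, 62.2 and 48.7 CPM in kidneys and at 20.8, 17.7 and 28.4 CPM in spleens, a log2 difference of 1.51 ± 0.20 (n = 3 and 3, edgeR adjusted p = 2.48e-05). Idi1 was at 42.4, 27.1 and 29.9 CPM against 13.7, 13.1 and 18.7 CPM, 1.11 ± 0.19 higher (edgeR adjusted p = 2.41e-04). Pmvk, the phosphomevalonate kinase, was at 46.1, 46.0 and 56.3 CPM against 21, 22.9 and 26.1 CPM, 1.08 ± 0.13 higher (edgeR adjusted p = 1.37e-05). In none of the 3 genes did the groups overlap. Ebp, a sterol isomerase, and Hmgcs1, the synthase before the step that sets the pathway's rate, were higher by 0.73 ± 0.12 and 0.64 ± 0.15 (edgeR adjusted p = 1.30e-04 and 0.00279). Of the sterol arm 3 of 9 genes were higher at this time, and Lss, Msmo1, Nsdhl and Hsd17b7 overlapped between tissues. Mvd of the mevalonate arm, named after its values were seen, went the other way. Its mean was 8.58 CPM in kidneys and 11.05 CPM in spleens, and it did not pass the test. With TMM factors 10 members were higher and 4 lower, beside 24.9% and 24.3% of all genes. Cell cycle transcripts in these cells, none of them called dividing, summed to 464 to 890 CPM in kidneys and 52.4 to 141 CPM in spleens at 1 week, and their part in these differences was not tested. Of all calls, 61.8% were higher by library totals and 50.6% with TMM factors at 1 week, and 74.4% and 51.9% at 3 weeks.

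**Figure D2:**
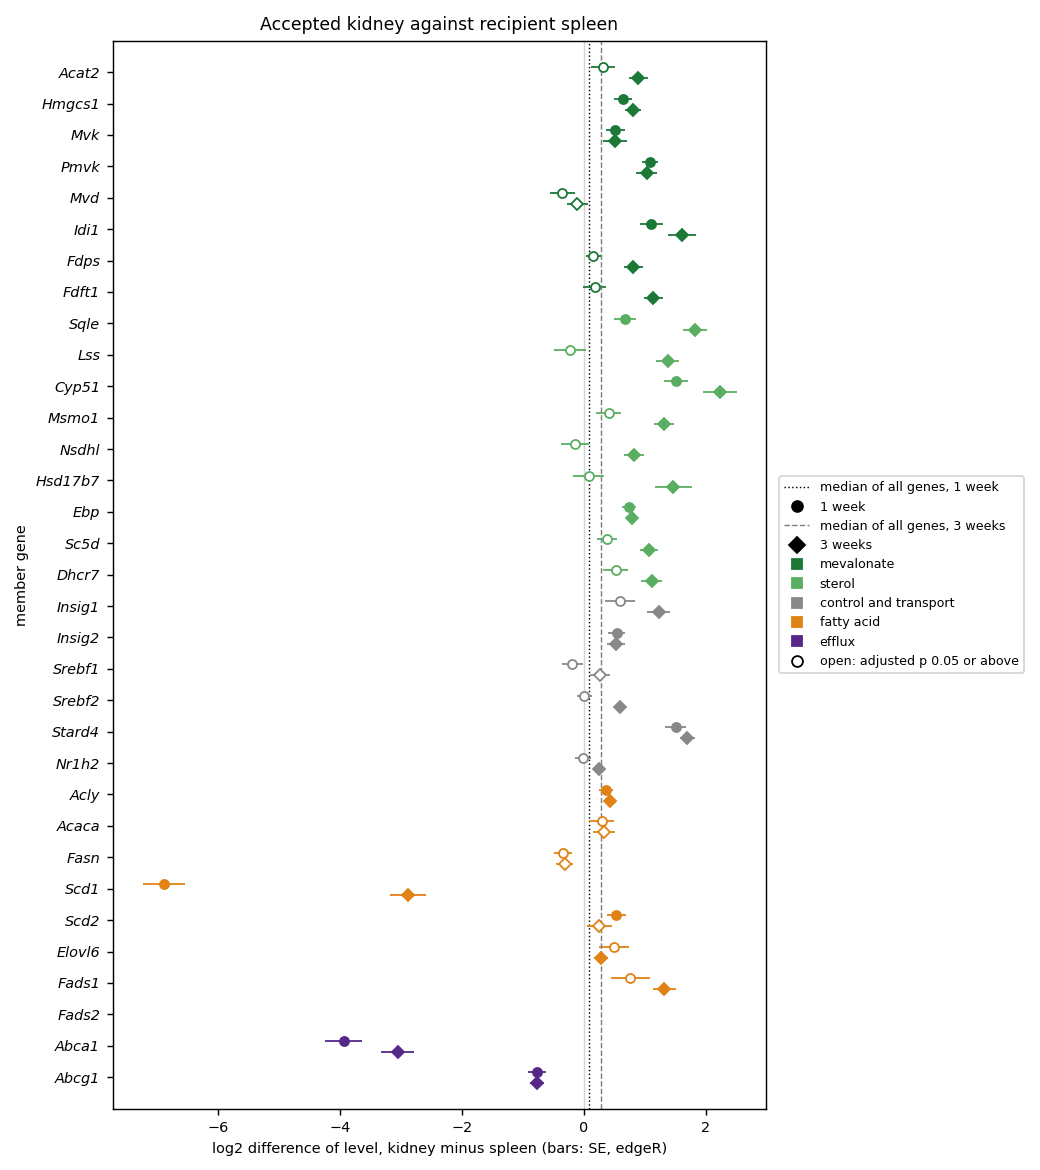
Log2 difference of each member between CD8+ cells of accepted kidney and recipient spleen (horizontal axis; bars are SE from edgeR), circles at 1 week and diamonds at 3 weeks, open where the adjusted p was 0.05 or above. All 9 sterol genes lie right of the median of all genes at 3 weeks, and Abca1, Abcg1 and Scd1 lie on the left at both times.

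The efflux pump Abca1, which hands cholesterol to apolipoprotein A-I, was lower in kidney than in spleen CD8+ cells at both times. It was at 0.727, 0.585 and 0.588 CPM in accepted kidneys at 1 week and at 0.548 to 1.27 CPM at 3 weeks, against 7.51, 9.79 and 12.1 CPM and 4.07 to 10.5 CPM in the spleens. Naive spleens held 7.76 to 11.8 CPM. Kidney and spleen libraries did not overlap, and the log2 difference was -3.94 ± 0.31 at 1 week and -3.06 ± 0.28 at 3 weeks (edgeR adjusted p = 1.51e-07 and 8.59e-09). Abcg1, which passes cholesterol to high density lipoprotein, was lower by less, at 16.1 to 20.6 CPM against 25.4 to 33.9 CPM at 1 week and 20.6 to 30.6 CPM against 41.0 to 49.8 CPM at 3 weeks, with log2 differences of -0.77 ± 0.15 and -0.77 ± 0.11 (edgeR adjusted p = 7.12e-04 and 6.93e-06). Markers of myeloid cells summed to 206 to 308 and 390 to 790 CPM in kidneys and 15.6 to 54.1 CPM in spleens with all 11 markers detected, and markers of B cells to 192 to 275 CPM in kidneys and 381 to 1450 CPM in spleens with all 5 detected. Without every cell that held a UMI of such a marker, Abca1 still differed by -3.19 at 1 week and -2.94 at 3 weeks (edgeR adjusted p = 6.20e-06 and 3.09e-08), and 15 and 24 members were called in place of 14 and 27.

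**Figure D3:**
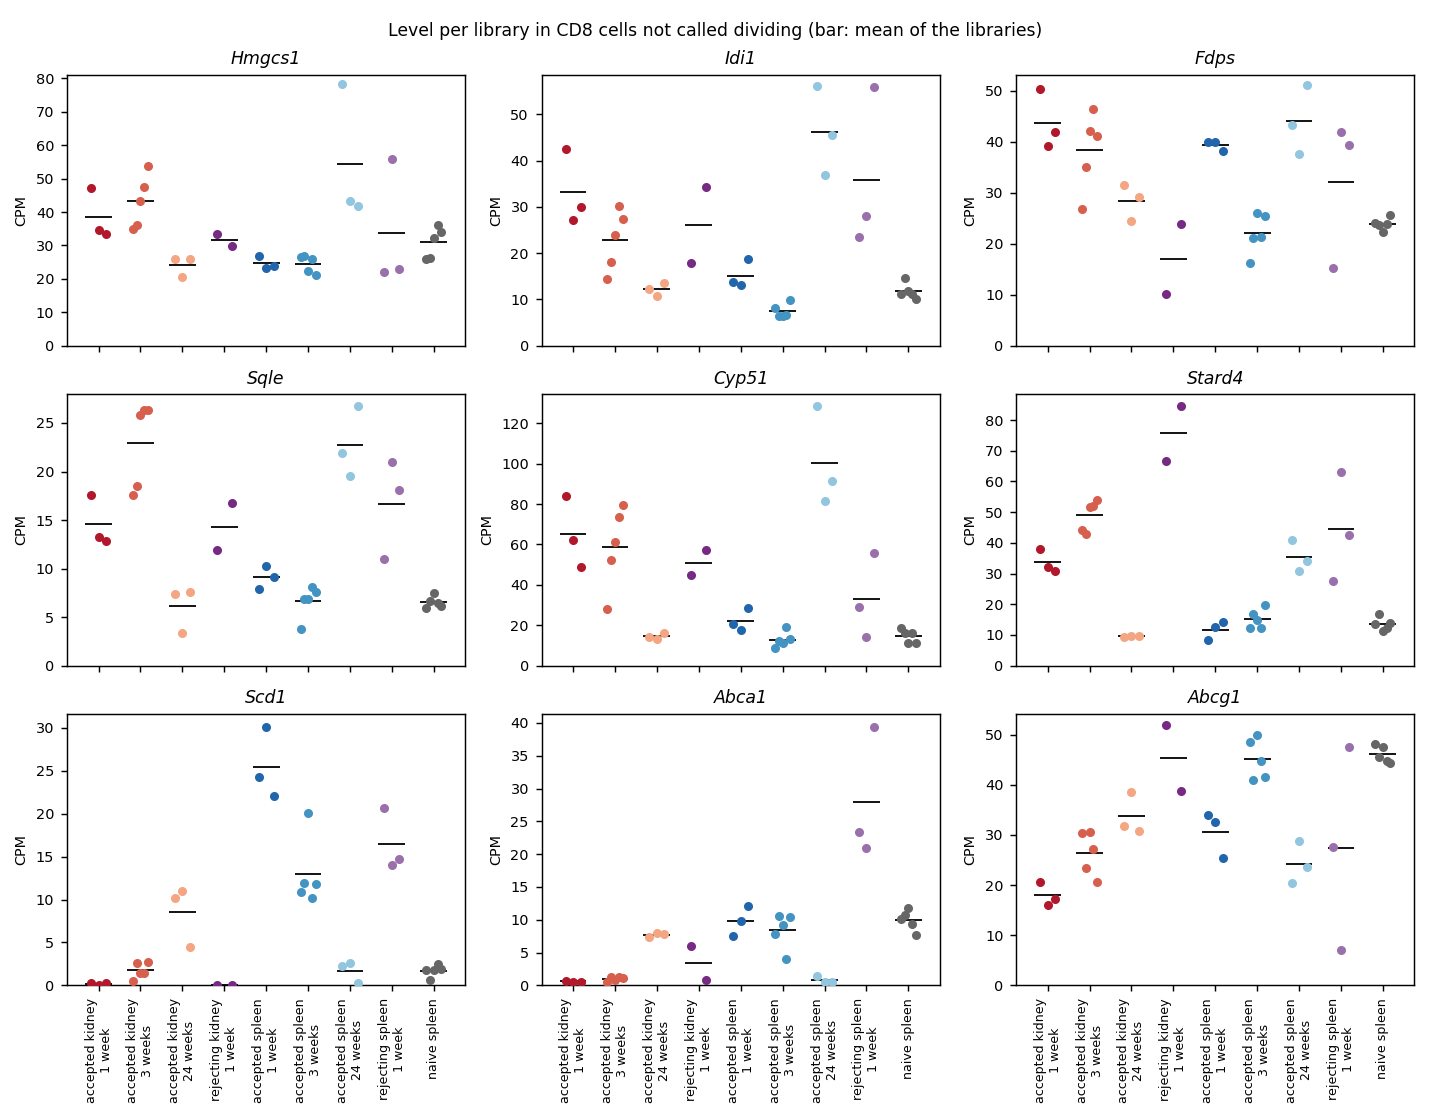
CPM in other CD8+ cells for 9 members, 1 panel each with its own vertical axis from 0, 1 point per library and a bar at the mean of the libraries, by group. Abca1 lies between 0.548 and 1.27 CPM in accepted kidneys at 1 and 3 weeks and between 4.07 and 12.1 CPM in the recipient spleens of these weeks, and Scd1 is highest in recipient spleens at 1 week.

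In recipient spleens Scd1, the main stearoyl-CoA desaturase, went with the B cell markers. Its 24.2, 30.1 and 22.0 CPM in spleens at 1 week against 0.242, 0 and 0.336 CPM in kidneys gave the lowest log2 difference of the members, -6.89, a fitted value that rests on near-empty kidney libraries. In spleen CD8+ cells at 1 week that held no marker of another cell type Scd1 was at 0.366 to 2.12 CPM (14 UMIs in all), and in those with a B cell marker UMI at 81.4 to 99.1 CPM (384 UMIs). The same split gave 1.21 to 6.31 against 43.0 to 65.1 CPM in spleens at 3 weeks, and 0 to 1.72 against 94.3 to 190 CPM in rejecting recipient spleens. In naive spleens, in contrast, cells with a B cell marker UMI held 0 to 3.85 CPM. In accepted kidneys at 3 weeks such cells held 0 to 5.80 CPM (5 UMIs), and cells without a marker 0.472 to 2.76 CPM. Other markers went with Scd1 too. Recipient spleen cells at 1 week held 22.0 to 52.0 CPM with a myeloid marker UMI and 13.2 to 35.3 CPM with a Cd4 UMI (30 and 18 UMIs of Scd1). A cell can stand in more than 1 of these classes. Most Scd1 UMIs of the recipient spleens thus lay in barcodes with B cell transcripts, and what those barcodes hold was not tested. Scd2, its close relative, was at 14.9 to 17.1 CPM in spleens and 19.9 to 27.0 CPM in kidneys at 1 week.

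Between 1 and 3 weeks Pmvk, Mvk (named after its values were seen), Idi1 and Ebp fell in kidney CD8+ cells, whereas Lss and Srebf2 rose, and these 6 calls stood by library totals, with TMM factors and with intron length taken out. By library totals 7 of 9 sterol genes were higher. Of 32 members tested 19 were higher at 3 weeks and 4 lower, beside 54.1% of all genes higher and 19.8% lower. With TMM factors, which took out a shift of 0.42 in the median of all genes, 5 were higher and 8 lower. The shares of all genes were then 33.4% higher and 33.9% lower. Of all calls 73.2% were higher by library totals and 49.6% with TMM factors. Pmvk fell from 46.1, 46.0 and 56.3 CPM to between 14.9 and 23.2 CPM, Ebp from 99.4, 96.8 and 111 CPM to between 54.3 and 68.5 CPM. Neither gene overlapped between the times, and the log2 differences were -1.29 ± 0.13 and -0.74 ± 0.09 (edgeR adjusted p = 2.08e-07 and 1.78e-06). Idi1 was lower by 0.53 ± 0.20 (edgeR adjusted p = 0.0226). It no longer passed without library 1 of 1 week or library 2 of 3 weeks (edgeR adjusted p = 0.191 and 0.0513). Sqle was 0.67 ± 0.16 and Msmo1 0.73 ± 0.18 higher (edgeR adjusted p = 0.00139 and 0.00190), or 0.24 and 0.30 relative to the median of all genes, and neither passed with TMM factors. Lss, which closes the squalene epoxide made by Sqle into lanosterol, was chosen after its values were seen. It rose from 4.97, 3.51 and 3.28 CPM to 9.40, 10.4, 11.8, 12.3 and 13.0 CPM. The rise was 1.56 ± 0.18, or 1.14 above the median of all genes (edgeR adjusted p = 9.63e-07). Srebf2 rose from between 36.6 and 44.4 CPM to between 64.7 and 81.0 CPM, 0.90 ± 0.10 higher and 0.47 above the median of all genes (edgeR adjusted p = 6.13e-07).

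The calls of Sc5d (0.36), Srebf1 (0.41) and Insig1 (0.51) in this comparison were lost without any of 5, 2 and 5 single libraries (adjusted p up to 0.147, 0.107 and 0.235), and Sc5d turned negative with TMM factors, as did Acly (0.35) and Nr1h2 (0.33). Abcg1 was higher at 3 weeks by 0.57 ± 0.14 (edgeR adjusted p = 0.00160), a call lost with TMM factors and a value that turned to -0.11 with intron length taken out. Abca1 differed by 0.67 ± 0.38 (edgeR adjusted p = 0.123, and 0.0418 without library 1 of 3 weeks). Cell cycle transcripts in the cells not called dividing summed to 464 to 890 CPM at 1 week and 70.8 to 85.0 CPM at 3 weeks, and their part in these differences was not tested. Markers of myeloid cells summed to 206 to 308 CPM at 1 week and 390 to 790 CPM at 3 weeks. Without cells holding a marker of another cell type 23 members were called, as before, with Pmvk at -1.22, Ebp at -0.72, Idi1 at -0.47 and Srebf2 at 0.92 (edgeR adjusted p = 2.49e-07, 2.48e-06, 0.0402 and 7.95e-07).

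In spleen CD8+ cells 5 of 8 mevalonate and 2 of 9 sterol genes fell over the same interval. Of 32 members 4 were higher and 8 lower, beside 32.9% of all genes higher and 15.4% lower. With TMM factors 2 were higher and 11 lower, beside 20.4% and 22.4% of all genes. The median of all genes lay at 0.19, and of all calls 68.1% were higher by library totals and 47.6% with TMM factors. Pmvk fell from 21, 22.9 and 26.1 CPM to between 6.89 and 12.8 CPM (-1.24 ± 0.17, edgeR adjusted p = 7.51e-06). Fdps, the farnesyl diphosphate synthase, fell from 39.9, 39.9 and 38.1 CPM to between 16.3 and 26.1 CPM (-0.84 ± 0.13, edgeR adjusted p = 2.70e-05). Cyp51 and Ebp fell by 0.85 and 0.79 on the log2 scale (edgeR adjusted p = 0.00158 and 6.18e-06), and Idi1, with a mean under the level set for naming, by 1.03 (edgeR adjusted p = 2.16e-04). Scd1 fell by 0.95 ± 0.18 (edgeR adjusted p = 2.32e-04), beside the fall in the B cell marker sum from 803 to 1450 CPM at 1 week to 381 to 723 CPM at 3 weeks. Abcg1 was 0.57 ± 0.12 higher (edgeR adjusted p = 4.94e-04), or 0.29 with intron length taken out, where it did not pass (adjusted p = 0.0530), and Abca1 differed by -0.21 ± 0.23 (edgeR adjusted p = 0.465). The calls of Acly (0.29) and Srebf2 (0.31) did not pass with TMM factors or without any of 4 and 3 single libraries.

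The difference between these 2 changes was tested directly, and 10 of 32 members changed more upward in kidney than in spleen while 0 changed more downward, beside 22.0% and 9.13% of all genes. Of the 10, 6 belonged to the sterol arm, whose median difference was 0.92 against 0.22 for all genes. Sqle differed by 1.15 ± 0.29, Msmo1 by 0.92 ± 0.27 and Srebf2 by 0.58 ± 0.15 (edgeR adjusted p = 0.00419, 0.0123 and 0.00440). With intron length taken out Srebf2 differed by 0.33 and did not pass (edgeR adjusted p = 0.0939). Lss, chosen after its values were seen, differed by 1.61 ± 0.31 (edgeR adjusted p = 3.90e-04). Sc5d (0.70) and Fdps (0.65) did not pass with TMM factors, nor without either of 2 single libraries (adjusted p up to 0.0932 and 0.0578). Scd1 differed by 3.99 ± 0.64 and, without cells holding a marker of another cell type, by 2.45 (edgeR adjusted p = 4.88e-05 and 0.117). Abca1 (0.88 ± 0.47) and Abcg1 (-0.004 ± 0.20) did not pass (edgeR adjusted p = 0.153 and 0.993). With TMM factors 8 members passed, all upward, beside 13.1% of all genes upward and 15.1% downward. Of all calls 46.5% were then upward in place of 70.6%. DESeq2 called 5 members, and 12 passed with same-numbered kidney and spleen libraries of a week paired, an alternative chosen after seeing the data.

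**Figure D4:**
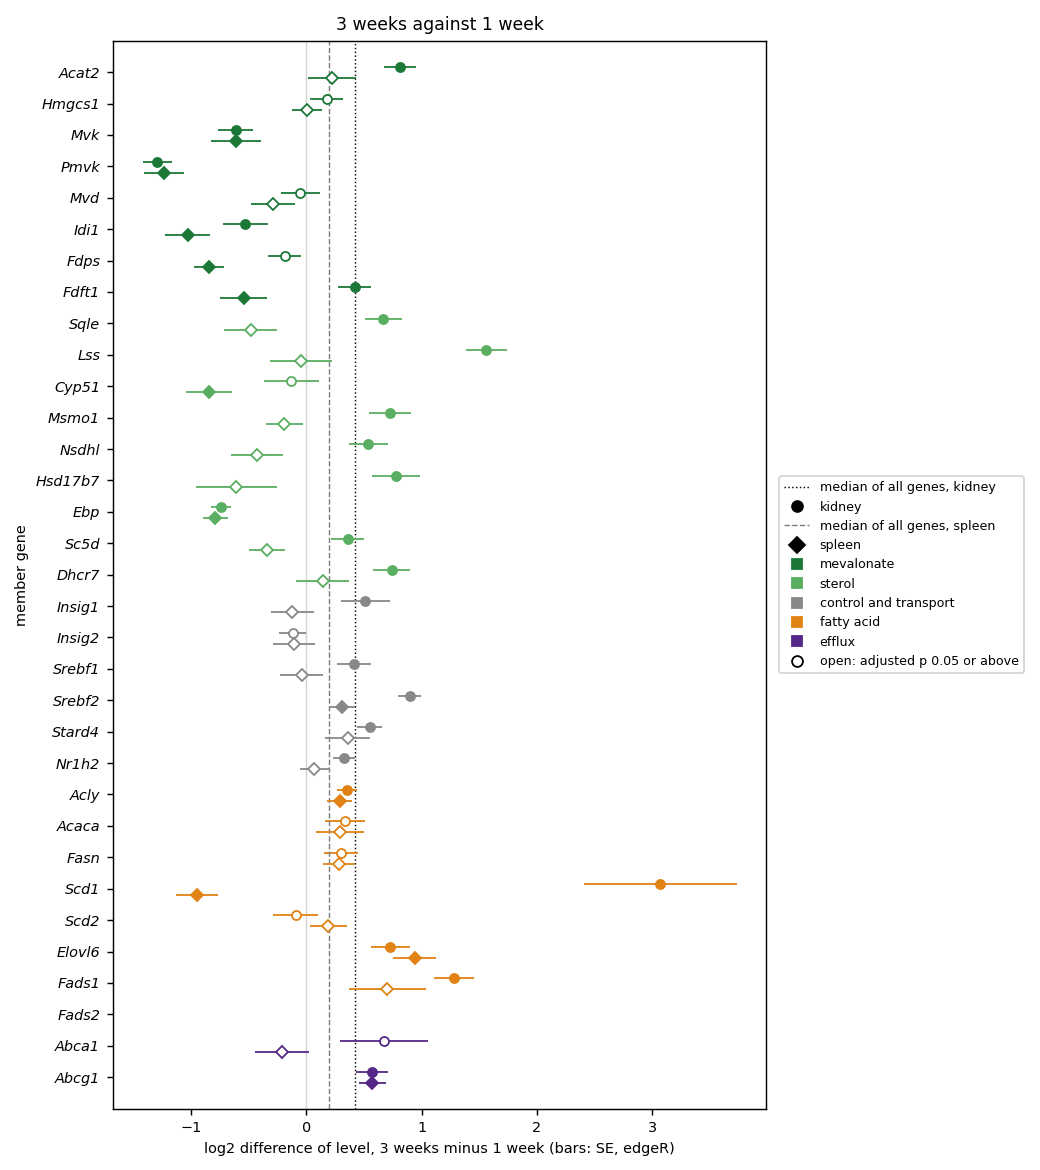
Log2 difference of each member between 3 weeks and 1 week (horizontal axis; bars are SE from edgeR), circles for kidney and diamonds for spleen CD8+ cells, open where the adjusted p was 0.05 or above. Pmvk, Mvk, Idi1 and Ebp lie left of 0 in both tissues, whereas Lss lies at 1.56 in kidney and near 0 in spleen.

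Dividing CD8+ cells of accepted kidneys at 1 week carried more synthesis transcript than the other CD8+ cells of the same library. Of 30 members tested 16 were higher and 1 lower, beside 20% of all genes higher and 13.8% lower, and the median of all genes was at 0.00. The calls took in 6 of 8 mevalonate, 6 of 9 sterol, 2 of 6 fatty acid and 2 of 6 control genes. Fdps was at 98.8, 92.8 and 53.6 CPM in dividing cells and at 50.3, 39.1 and 41.9 CPM in other cells, higher in 3 of 3 libraries by 0.83 ± 0.12 (edgeR adjusted p = 2.19e-05). Idi1 was at 80.8, 64.6 and 39.7 CPM against 42.4, 27.1 and 29.9 CPM, 0.82 ± 0.12 higher (edgeR adjusted p = 1.95e-05). Hmgcs1 was at 81.1, 61.1 and 38.6 CPM against 47.3, 34.6 and 33.5 CPM, 0.57 ± 0.11 higher (edgeR adjusted p = 3.24e-04). In all 3 genes library 3 showed the smallest step. Fasn, the fatty acid synthase, was higher by 0.56 ± 0.12 and Cyp51 by 0.47 ± 0.08 (edgeR adjusted p = 0.00134 and 1.18e-04).

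Abcg1 was the member that was lower in dividing cells, at 14.3, 9.18 and 9.92 CPM against 20.6, 16.1 and 17.1 CPM, -0.71 ± 0.13 on the log2 scale (edgeR adjusted p = 3.75e-04), while Abca1, at 0.276 to 0.353 CPM, was under the count filter. The ratio of the mevalonate and sterol sum to the efflux sum was 48.7 to 66.2 in dividing cells and 24.2 to 25.1 in other cells. Insig1 (0.43) lost its call without library 1 or library 2 (adjusted p = 0.0696 and 0.0900). The number of members called was 10 without library 1, 7 by DESeq2, 5 without the pairing of dividing and other cells by library, and 11 when dividing cells were called by Mki67 or Top2a alone. Dividing cells were also deeper, with medians of 3875 to 7796.5 UMIs against 1859 to 3485, and the part of depth was not tested.

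In rejecting kidneys the same contrast had 2 libraries, and 1 of 29 members was higher and 1 lower, beside 5.30% and 2.14% of all genes. All 7 mevalonate genes tested and all 9 sterol genes had positive log2 differences, with medians of 0.665 and 0.508. In accepted kidneys these medians were 0.505 and 0.419. Of 6 fatty acid genes tested 3 were positive (median 0.047). On simulated data this test recovered 25% of 2-fold and 7% of 1.5-fold changes, so few calls do not show a weak contrast. Fdps was at 44.3 and 42.1 CPM in dividing and 10.1 and 23.8 CPM in other cells, 1.26 ± 0.38 higher, and Abcg1 at 25.9 and 15.6 CPM against 51.8 and 38.8 CPM, -1.20 ± 0.35 (edgeR adjusted p = 0.0418 and 0.0306). Without cells that held a marker of another cell type the difference in Fdps was about as large, 1.19, but did not pass (adjusted p = 0.121), and DESeq2 called neither gene. Hmgcs1, chosen after its values were seen, was higher in both libraries, at 62.8 and 54.3 CPM against 33.4 and 30 CPM, without passing the test. The contrast was not shown to differ between rejecting and accepted kidneys, with 0 of 30 members called by edgeR or DESeq2 and 0 at an unadjusted p under 0.05, beside 0.00912% of all genes higher and 0.0182% lower. On simulated data this test of the difference recovered 30% of 2-fold and 8% of 1.5-fold changes, with 9.5% of its calls false. It could therefore miss most differences of that size. In recipient spleens at 1 week dividing cells held 210 to 229 CPM of the mevalonate sum against 136 to 146 CPM in other cells, from 33 to 109 dividing cells per library, while the fatty acid sum was 101 to 113.5 against 110 to 118 CPM. Of the 25 synthesis genes 8 were higher and 2 lower in dividing cells of every spleen library. In every accepted kidney library 17 were higher and 0 lower, and in both rejecting kidney libraries 15 were higher and 3 lower. The share of all genes that did so was not counted. Dividing pools held 187694 to 810437 UMIs in these spleens, 2832484 to 10885418 UMIs in accepted kidneys and 270671 and 1472918 UMIs in rejecting kidneys. These counts therefore cannot be set against each other. The contrast of dividing and other cells was not tested in spleens.

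**Figure D5:**
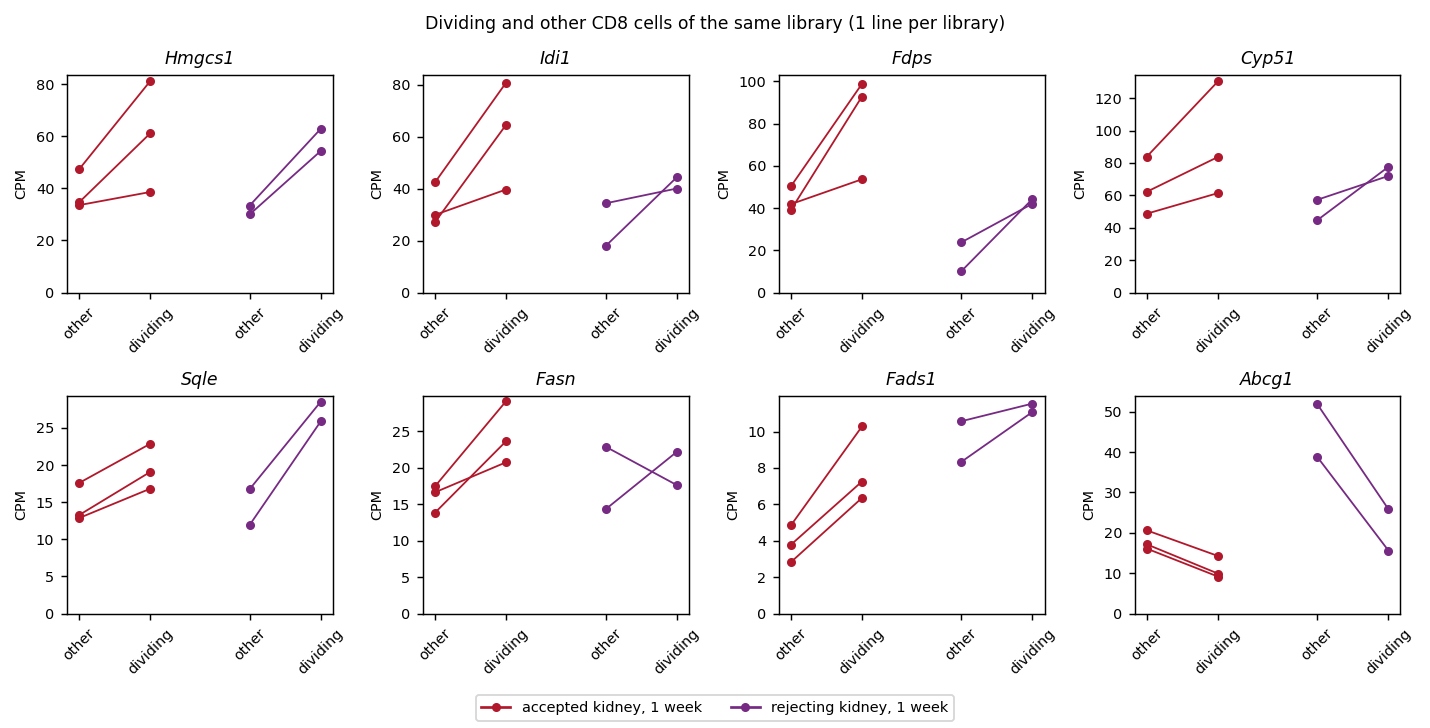
CPM of 8 members in other and dividing CD8+ cells of the same library, joined by a line, for accepted kidneys (3 libraries) and rejecting kidneys (2 libraries) at 1 week, each panel with its own vertical axis from 0. Lines for Fdps, Hmgcs1 and Sqle rise and lines for Abcg1 fall in all 5 libraries.

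Other CD8+ cells of rejecting kidneys held more Acaca and Elovl6 and less Fdps, Ebp and Pmvk than those of accepted kidneys at 1 week. By library totals 5 of 6 fatty acid genes tested were higher, with a median log2 difference of 1.29. Of 30 members tested 9 were higher and 3 lower, beside 46.4% of all genes higher and 10.7% lower. The median of all genes was shifted by 0.66. With TMM factors 4 members were higher (Acaca, Elovl6, Stard4 and Abcg1) and 12 lower, beside 26.5% and 25.9% of all genes. The share of all calls that were higher went from 81.3% to 50.6%. Acaca, the acetyl-CoA carboxylase that commits carbon to fatty acids, was at 51.2 and 60.8 CPM in rejecting and 14.2, 8.58 and 11.3 CPM in accepted kidneys, 2.31 ± 0.24 higher (edgeR adjusted p = 1.31e-05). Elovl6, which elongates palmitate, was at 53.6 and 52.0 CPM against 8.49, 6.43 and 12.4 CPM, 2.53 ± 0.27 higher (edgeR adjusted p = 1.59e-05). The groups did not overlap in either gene, and both differences held relative to the median of all genes (1.65 and 1.87). With the shift of genes of similar intron length taken out they were 0.29 and 0.49 (adjusted p = 0.302 and 0.203). The rejecting recipient spleens, also from DBA/2J mice, held 36.1 to 49.0 CPM of Acaca and 14.0 to 41.0 CPM of Elovl6, against 8.66 to 10.0 and 5.97 to 7.34 CPM in accepted recipient spleens. The ranges of the rejecting recipient spleens take in library 2, with only 55 other CD8+ cells.

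Fdps, Ebp and Pmvk were lower in rejecting kidneys, by 1.44 ± 0.31, 0.92 ± 0.22 and 0.90 ± 0.27 on the log2 scale (edgeR adjusted p = 0.00207, 0.00450 and 0.0152), and these 3 were also lower with TMM factors and with intron length taken out. Fdps was at 10.1 and 23.8 CPM against 39.1 to 50.3 CPM. Pmvk, at 17.9 and 37.0 CPM in the 2 rejecting libraries, did not pass without library 2 (adjusted p = 0.216). Scd2 was 1.29 ± 0.28 and Srebf2 0.92 ± 0.18 higher (edgeR adjusted p = 0.00215 and 0.00108), but neither passed with TMM factors, and Acly (0.55), which lost its call without any of 3 single libraries, turned to -0.12 with them. With intron length taken out Acly was lower, at -0.53 (edgeR adjusted p = 0.0238), and Srebf2 was at -0.15 (edgeR adjusted p = 0.416). Abcg1 was at 51.8 and 38.8 CPM against 16.1 to 20.6 CPM, 1.36 ± 0.21 higher, and 0.30 with intron length taken out (adjusted p = 2.61e-04 and 0.224). Abca1 rested on 10 and 1 UMIs and was not tested. Myeloid cells of the same kidneys, 2835 and 4314 cells, held 180 and 122 CPM of Abcg1 and 145 and 36.6 CPM of Abca1. Without the CD8+ cells holding a marker of another cell type, Abcg1 in rejecting kidneys was 1.48 higher (adjusted p = 6.44e-05). Markers of myeloid cells summed to 312 to 362 CPM in rejecting and 206 to 308 CPM in accepted kidneys.

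In spleen CD8+ cells of accepted graft recipients at 1 week 5 of 8 mevalonate genes were higher and 2 lower than in naive mice. Against naive spleens, recipient spleens at 1 week had 10 of 32 members higher and 9 lower, beside 18.9% of all genes higher and 37.9% lower. The median of all genes lay at -0.20. With TMM factors 10 members were higher and 3 lower, beside 26.5% and 24.5% of all genes. Of all calls 33.2% were higher by library totals and 51.9% with TMM factors. Pmvk was at 21, 22.9 and 26.1 CPM in recipients and at 7 to 10.4 CPM in the 5 naive spleens, 1.39 ± 0.14 higher (edgeR adjusted p = 9.16e-08). Fdps was at 38.1 to 39.9 CPM against 22.3 to 25.7 CPM, 0.72 ± 0.09 higher (edgeR adjusted p = 2.15e-06). Neither gene overlapped between the groups. Ebp was 0.56 ± 0.10 higher, and Cyp51 (0.61) and Insig1 (0.60) were higher too but did not pass without library 3 and library 1 of the recipients (adjusted p = 0.0623 and 0.0637). Scd1 was 3.83 ± 0.22 higher, and it could not be tested once cells with a marker of another cell type were left out. Abcg1 was at 25.4 to 33.9 CPM against 44.4 to 48.2 CPM, -0.60 ± 0.10 (edgeR adjusted p = 4.43e-05), whereas Abca1 did not differ detectably (-0.003 ± 0.18, edgeR adjusted p = 0.991). Hmgcs1, Scd2, Acly and Srebf2 were called lower by 0.28 to 0.38, calls that TMM factors took away. Hmgcs1, Scd2 and Acly also lost theirs without any of 4 single libraries, and Srebf2 without 1 (edgeR adjusted p up to 0.0855, 0.121, 0.106 and 0.0670). These calls still passed without cells holding a marker of another cell type. Leaving out these cells gave Scd2 -0.73 in place of -0.38 and Srebf2 -0.48 in place of -0.28 (edgeR adjusted p = 4.63e-04 and 3.38e-04), and Abca1 -0.42, which did not pass (edgeR adjusted p = 0.140). Markers of B cells summed to 803 to 1450 CPM in these recipients and 253 to 334 CPM in naive spleens, and markers of myeloid cells to 43.1 to 54.1 against 4.61 to 17 CPM. Without the cells holding such a marker 15 members were called in place of 19. At 3 weeks, where no test against naive spleens was made, the mevalonate sum lay on the other side, at 90.8 to 102 CPM in recipients and 106.5 to 114 CPM in naive spleens.

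The comparisons above share libraries, so they are not independent. Those of kidneys at 3 and 1 week, of kidney and spleen at 1 week, of rejecting and accepted kidneys and of dividing and other cells in accepted kidneys all used the 3 accepted kidneys at 1 week. The spleens at 1 week stood in 4 of the comparisons.

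Under the 24-week labels the levels of the members changed sides. Kidney-labelled libraries against kidneys at 3 weeks had 3 of 32 members higher and 24 lower, beside 14.2% and 56.7% of all genes. The median of all genes was -0.51 by library totals. With TMM factors 5 members were higher and 9 lower, beside 29.4% and 31.1% of all genes. Of all calls 48.6% were then higher in place of 20%. The kidney-labelled libraries held Cyp51 at 13.2 to 16.4 CPM, Sqle at 3.37 to 7.59 CPM and Abca1 at 7.35 to 7.96 CPM. Spleen-labelled libraries against spleens at 3 weeks had 19 higher and 5 lower, beside 31.0% and 27.4% of all genes, with Cyp51 at 81.7 to 128 CPM, Idi1 at 37.0 to 56.1 CPM and Abca1 at 0.491 to 1.45 CPM. The mevalonate and sterol sum was 4.49 to 6.30 times the efflux sum under the kidney label and 14.8 to 25.6 times under the spleen label. Whether these labels were exchanged was not tested.

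Of 35 other genes of the pathway, 12 of 32 tested were higher and 8 lower in kidney than spleen at 1 week, beside 29.6% and 18.3% of all genes, and 13 of 31 higher and 8 lower at 3 weeks, beside 48.6% and 16.8%. The genes named from this list were chosen after their values were seen. Soat1, which esterifies cholesterol for storage, Tmem97, a sterol-regulated membrane protein, and Npc1, which exports cholesterol from the lysosome, were among those higher at both times. Mylip, an LXR target, and Npc2, the lysosomal carrier that works with Npc1, were among those lower at both. In dividing cells of accepted kidneys 8 of 31 were higher, Soat1 and Lbr among them, and 3 were lower, namely Acss2, Mylip and Npc2, beside 20% and 13.8% of all genes. Rejecting kidneys had 17 of 30 higher and 0 lower than accepted ones, beside 46.4% of all genes higher.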

How the data were processed

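Droplet scRNA-seq (10x Chromium 3′) of CD45+ cells was used through the 9 matrices of CD8+ T cells, plus the CD45+ matrix of rejecting kidneys for myeloid cells. The authors deposited UMI counts per gene and cell, not normalized, after their own cell filters and cell type calls, and the submitters' processing notes name Cell Ranger and mm10. Their filter limits and doublet handling were not given in the sources used here, and no doublet caller was run. Labels give 1 sample per group. Library tags in the barcodes were taken as replicates. The study gives group sizes for accepted grafts only, and 1 mouse per tag is assumed elsewhere, so p-values measure the spread between these libraries.

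UMIs were summed per library and state in pools of at least 20 cells, scaled by plain totals and tested with edgeR 4.0.16 (R 4.3.3; filterByExpr, quasi-likelihood F test, two-sided) over all genes with Benjamini-Hochberg adjustment at 0.05. Dividing and other pools were blocked by library. A value given as ± is the SE of a log2 difference. Shallower pools carry more counting error, and other effects of depth were not tested. DESeq2 1.42.0, TMM factors, other cell calls, the removal of intron length shifts (10 groups) and the removal of each library were alternatives. The tests were tried on simulated data with known changes. They recovered from 25% (dividing cells in rejecting kidneys) to 94% (recipient against naive spleens) of 2-fold changes. Members and lists were chosen with earlier results of these data known. Named genes are, per comparison, the 5 called synthesis genes with the largest rise and the 5 with the largest fall among those with a mean of at least 20 CPM in 1 group, the 2 efflux genes where tested, and Srebf1, Srebf2, Insig1 and Nr1h2 where they passed. Any other gene named was chosen after its values were seen. Kidney and spleen libraries share tag numbers. At 3 weeks deviations from the group means over 4579 genes correlated at 0.108 to 0.490 between same-numbered libraries. Between libraries of different numbers the correlations were -0.360 to 0.169. These ranges overlap, which neither shows nor excludes that the numbers pair the libraries. The main tests of kidney against spleen were left unpaired, and paired fits are given as alternatives.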

Additional observations from a re-analysis of the deposited data

Results flagged for a closer look

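Of 65 sets of 5 libraries with a mean of at least 10 CPM, 2 held a library far from the other 4, and chance flags about 5 percent of such sets. Scd1 was at 20.1 CPM in library 3 of the recipient spleens at 3 weeks, against 10.2 to 12 CPM in the others. Nr1h2 was at 24.5 CPM in library 2 of the naive spleens, against 27.0 to 27.9 CPM. The change from 1 to 3 weeks differed between kidney and spleen, by the edgeR test of the difference, in 10 members. The log2 differences were 0.65 for Fdps, 0.96 for Fdft1, 1.15 for Sqle, 1.61 for Lss, 0.92 for Msmo1, 0.97 for Nsdhl, 1.39 for Hsd17b7, 0.70 for Sc5d, 0.58 for Srebf2 and 3.99 for Scd1. Each is a change more upward in kidney than in spleen, not a higher level. Without cells holding a marker of another cell type Scd1 differed by 2.45 and did not pass (edgeR adjusted p = 0.117).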

How the results depend on the processing

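Of 1653 values recomputed under an alternative for 98 results, 1471 kept their direction and their side of the threshold, 145 lost the threshold, 2 gained it and 35 changed sign. For dividing against other cells in accepted kidneys, 17 members passed, and 7 by DESeq2, 11 with Mki67 or Top2a and 5 with no replicate block (unpaired libraries). In rejecting kidneys 2 passed, and 0 by DESeq2 or with no replicate block, 1 each with intron length taken out, without cells holding other markers or with Mki67 or Top2a, and 6 when dividing was called on unthinned counts. For kidneys at 3 against 1 week 23 passed, and 13 with TMM factors or DESeq2. For kidney-labelled libraries at 24 against 3 weeks 27 passed, and 14 with TMM factors or DESeq2 and 13 with intron length taken out. For the difference of the changes 10 passed, and 5 by DESeq2. The cause of these changes was not tested.

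With 1 library left out, 10 to 21 members passed for dividing cells, 19 to 26 for kidneys at 3 against 1 week, 8 to 12 for spleens at 3 against 1 week, 12 to 16 and 24 to 28 for kidney against spleen at 1 and 3 weeks, 10 to 12 for rejecting kidneys, 13 to 19 against naive spleens and 8 to 12 for the difference. A lone library left in a group is assumed to vary like the others. Leaving out a library could not be fitted for dividing cells in rejecting kidneys, which then have no residual degrees of freedom. With a replicate block for kidney against spleen, 18 members passed at 1 week in place of 14, and 27 at 3 weeks in place of 27. Same-numbered libraries at 1 week correlated at 0.152, 0.002 and 0.137, and whether they share a mouse was not given in the sources used here. For the difference of the changes a replicate block within each week, chosen after seeing the data, gave 12 in place of 10.

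These log2 values changed sign. For kidneys at 3 against 1 week, TMM factors, DESeq2 and the removal of intron length gave Sc5d -0.036 and -0.046 by the first 2, Acly -0.045, -0.054 and -0.159, and Nr1h2 -0.073 and -0.081 by the first 2, with Abca1 -0.097 and Abcg1 -0.112 by the last. Nr1h2 was -0.023 with TMM factors and -0.024 by DESeq2 for kidney against spleen at 3 weeks. For rejecting kidneys Acly was -0.12 with TMM factors and by DESeq2, and -0.53 with intron length taken out, where Srebf2 was -0.15. Against naive spleens Abca1 (-0.003) was 0.179, 0.171 and 0.37 in the same order, 0.0 on unthinned counts, 0.021 with Mki67 or Top2a and -0.211 to 0.159 without single libraries, and Acly was 0.016 and Srebf2 0.017 with intron length taken out. For the difference of the changes Abcg1 (-0.004) was 0.068 with Mki67 or Top2a, 0.067 in all cells of the matrix and -0.088 to 0.126 without single libraries.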
